A study of Homo sapiens with 16 samples.

Results

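The genes described here make pyrimidine nucleotides and the deoxynucleotides of DNA. They are 10 listed genes (CAD, DHODH, UMPS, CTPS1, RRM1, RRM2, RRM2B, TK1, DCK and DUT) of the 60676 gene identifiers in each count table, matched by symbol and Ensembl identifier. All 10 passed the filter on low counts, which kept 21569 genes. RNA was sequenced from the human melanoma lines A101D, labelled methionine dependent, and MeWo, labelled methionine independent, with 8 libraries per line. Each kind is represented by 1 line. All cultures were kept in a base medium with dialyzed serum, glutamine, pyruvate and cystine. The protocol describes a control medium with methionine and a medium with homocysteine in its place, but no label says which culture received which, so no medium is assigned here. The genes are described by line and by replicates 1 to 4 (the first set) and 5 to 8 (the second set), as in the rule that chose them. No label says what separates these sets, which are named only by their replicate numbers. The split was known from earlier results of these data to separate the A101D libraries, so a test between sets describes the libraries and is not independent evidence that they form groups. Nothing says that the replicates are separate cultures, and p-values then measure only the spread between these libraries.

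De novo pyrimidine synthesis builds the ring from glutamine, bicarbonate and aspartate, through CAD, DHODH and UMPS, to UMP. CTPS1 turns UTP into CTP. Ribonucleotide reductase, made of the large subunit RRM1 and a small subunit (RRM2 or RRM2B), then converts ribonucleotides to deoxyribonucleotides. TK1 and DCK recover thymidine and deoxycytidine by phosphorylation, and DUT hydrolyses dUTP, which keeps uracil out of DNA and supplies dUMP for thymidylate. RRM2 and TK1 are textbook S-phase genes, whereas RRM2B is induced by p53 and serves cells outside S phase.

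Sequence upstream of the start site was examined because several of these genes are known targets of E2F factors and because they moved together between the A101D sets. RefSeq windows of the 250 bases before a start site (GRCh38.p14) were found for 9 of the 10 genes, 15 windows in all. A 7-base core was searched on both strands, in the form TTGGCGC, in the second form TTCCCGC, in the third form TTCGCGC or in the fourth form TTGCCGC. At least 1 form occurred in 10.9% of 35116 windows of all genes. One window each of RRM2, RRM1, TK1, DCK and DUT held a match, 5 of the 15 windows. Lines below give 29 bases around each match, 5′ to 3′ on the gene's strand, with the core in capitals. RRM2 at chr2:10122365-10122393 (plus strand), RRM1 at chr11:4094451-4094479 (plus), TK1 at chr17:78187053-78187081 (minus), DCK at chr4:70993446-70993474 and chr4:70993550-70993578 (plus) and DUT at chr15:48332152-48332180 (plus) read as follows.
RRM2: ggggcccgcgcGCGCCAAggccgccgaga
RRM1: caagaaaaacgTTCCCGCcggttaggttt
TK1: ggtttaaagcggtcggcGCGGGAAccagg
DCK, far site: tccggaacctcTTCCCGCgccctgcccgg
DCK, near site: ggagcgcgcacGCGGGAAcccgcgctgga
DUT: ctgGCGGGAAatttcggttTTGGCGCgct
The DUT stretch holds 2 matches, on opposite strands. In GENCODE 29 the RRM1 stretch lies outside any gene, and the stretches of RRM2, TK1, DCK and DUT lie in an annotated 5′ untranslated exon of a longer transcript of the same gene. Both DCK stretches also lie within the gene MOB1B, outside its exons. Windows of CAD, DHODH, UMPS and CTPS1 held none of these letters. Each form was also searched with a T put before it, which makes 8 bases: 2.79% of all windows held one, and among the genes here only DUT did. Both lengths were looked at before the shorter was printed. The letters CCAAT occurred in 32.0% of all windows and in windows of RRM2, RRM1, TK1, CAD and DHODH, with 3 in the second RRM2 window. CACGTG occurred in 6.34% of all windows and in those of DCK and DHODH. A match is a stretch of letters, not a shown binding site.

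Total counts per library ran from 28910881 to 38961862 for A101D and from 31217443 to 38722489 for MeWo. Levels are given as CPM, the counts of a gene per 1000000 counts of its library, with library sizes scaled by the trimmed mean of M-values. The lowest count of any of the 10 genes in any library was 327 (DCK, A101D replicate 5), for which counting error alone is 5.53% (relative SD). All 7 melanocyte lineage markers (SOX10, MITF, PMEL, MLANA, TYR, DCT and S100B) reached 1 CPM in every library of both lines. Their summed level was 2874 to 3466 CPM in A101D replicates 1 to 4, 2497 to 2745 in A101D replicates 5 to 8 and 8208 to 9076 in MeWo. Most of the MeWo sum was PMEL, at 6674 ± 202 CPM (n = 8). Over all replicates 5 of the 7 markers were higher in MeWo and 2 lower, DCT (log2 fold change -1.55) and S100B (-2.19). Among all genes 78.5% were called in that comparison, 37.5% higher and 41.0% lower. TYR was as low as 1.10 CPM in A101D.

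Of the 10 genes, RRM2 and RRM1 of ribonucleotide reductase differed most between the A101D sets. The small subunit gene RRM2 (ENSG00000171848, GRCh38 chromosome 2, 10120698 to 10131419, plus strand) stood at 179, 192, 198 and 189 CPM in A101D replicates 1 to 4. It stood at 14.1, 13.3, 16.9 and 18.6 CPM in replicates 5 to 8 of that line. In MeWo it had 234, 234, 238 and 231 CPM in replicates 1 to 4 and 215, 209, 208 and 214 CPM in replicates 5 to 8. Every A101D library of the second set lay far below every other library, and the MeWo sets differed little but did not overlap. The A101D sets differed 12.1-fold (log2 fold change -3.60, 95% interval -3.72 to -3.48, adjusted p 2.94e-34, limma with Benjamini-Hochberg adjustment over all genes tested). RRM2 had the 11th lowest log2 fold change of the 21569 genes in that comparison. In MeWo the same contrast was -0.15 (interval -0.23 to -0.07, adjusted p 0.00923, limma). Limma-trend gave no call for it there (adjusted p 0.207). The difference between these set differences was 3.45 on the log2 scale (adjusted p 2.41e-30, limma). RRM2 has 3 pseudogenes in the tables, with a summed level of at most 1.22 CPM and at most 8.26% of the RRM2 level in a library, and reads could have been split among them.

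RRM1 (ENSG00000167325, chromosome 11, 4094707 to 4138876, plus strand), the large subunit that binds both small subunits, had 107, 114, 115 and 114 CPM in A101D replicates 1 to 4. It had 27.0, 28.3, 29.2 and 32.1 CPM in replicates 5 to 8. MeWo libraries held 177, 180.2, 178 and 168 CPM in the first set and 167, 165, 164 and 162 CPM in the second. All MeWo libraries were above all A101D libraries, and the second A101D set was lowest. RRM1 was 3.85-fold lower in A101D replicates 5 to 8 than in 1 to 4 (log2 fold change -1.95, adjusted p 9.51e-32, limma). The log2 fold change of RRM2 there was -3.60. The MeWo sets gave -0.10 (adjusted p 0.0583, limma), not called.

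RRM2B (ENSG00000048392, chromosome 8, 102204502 to 102239118, minus strand), the small subunit that p53 induces, kept a different pattern. A101D libraries had 109, 121, 114 and 110 CPM in the first set and 117, 118, 122 and 125 CPM in the second. MeWo libraries had 43.2, 44.1, 44.4 and 38.6 CPM and then 41.0, 45.4, 44.8 and 43.3 CPM. The lines were fully apart and the sets overlapped within each line. RRM2B was 2.71-fold lower in MeWo over all replicates (log2 fold change -1.44, interval -1.53 to -1.35, adjusted p 2.15e-15, limma). The difference between A101D sets was 0.09 on the log2 scale (interval 0.01 to 0.17, adjusted p 0.0482, limma), a call lost under several alternatives. Without A101D replicate 1 its adjusted p was 0.171 (limma).

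Levels per kilobase of exon sequence allow the subunits to be set side by side. The length joins all annotated exons of a gene and can exceed that of the transcripts expressed. Levels of different genes are therefore compared only roughly. Per kilobase, the ratio of RRM2 to RRM1 was 1.32 ± 0.0203 in A101D replicates 1 to 4 and 0.422 ± 0.0410 in replicates 5 to 8 (SD, n = 4 each). In MeWo this ratio was 1.04 ± 0.0255 and 1.01 ± 0.0212. RRM2B made up 36.5% ± 1.06 of the summed small subunit level in the first A101D set and 88.1% ± 1.36 in the second. Its share in MeWo was 14.8% ± 0.692 and 16.5% ± 0.822. The share ran from 35.5% to 37.8% and from 86.6% to 89.5% in the A101D sets, with no overlap. By this measure RRM2B held most of the summed small subunit level in A101D replicates 5 to 8 and in no other group. These ratios describe RNA, not protein, and carry no test.

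**Figure D1:**
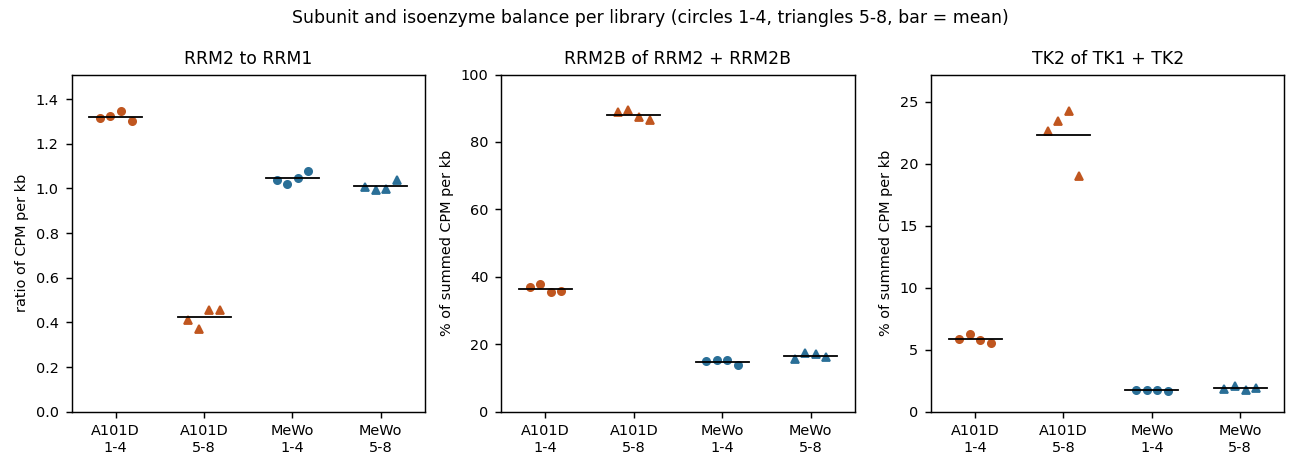
Ratio of RRM2 to RRM1 (left), RRM2B as a percentage of RRM2 plus RRM2B (middle) and TK2 as a percentage of TK1 plus TK2 (right), each from CPM per kilobase of exon sequence. Points are libraries (circles replicates 1 to 4, triangles 5 to 8) and bars are group means (n = 4). RRM2B takes 88.1% on average in A101D replicates 5 to 8 and 36.5% or less in the other groups.

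Salvage and dUTP control genes were all higher in MeWo and all lower in the second A101D set. TK1 (ENSG00000167900, chromosome 17, 78174075 to 78187233, minus strand), the cytosolic thymidine kinase, had 60.0, 60.7, 64.4 and 62.3 CPM in A101D replicates 1 to 4. Replicates 5 to 8 had 23.3, 22.2, 21.9 and 24.9 CPM. In MeWo the values were 346, 365, 347 and 354 CPM and then 371, 314, 355 and 342 CPM. Every MeWo library exceeded every A101D library several times over, and the MeWo sets overlapped. TK1 was 9.30-fold higher in MeWo over all replicates (log2 fold change 3.22, interval 2.74 to 3.70, adjusted p 5.23e-10, limma). Within sets the line difference was 5.71-fold in replicates 1 to 4 and 14.9-fold in replicates 5 to 8. The A101D sets differed 2.68-fold (log2 fold change -1.42, adjusted p 8.29e-24, limma). The mitochondrial kinase TK2 moved the other way in A101D, from 14.8 ± 0.682 CPM to 25.5 ± 2.01 CPM (log2 fold change 0.78, adjusted p 6.3e-15, limma). Per kilobase, TK2 was 5.86% ± 0.289 of the TK1 plus TK2 level in the first A101D set and 22.3% ± 2.33 in the second. In MeWo it was 1.74% ± 0.0449 and 1.88% ± 0.144.

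DCK (ENSG00000156136, chromosome 4, 70992538 to 71030914, plus strand), the deoxycytidine kinase, ran from 18.6 to 21.3 CPM in A101D replicates 1 to 4 and from 8.70 to 10.3 CPM in replicates 5 to 8. MeWo libraries ran from 42.8 to 49.5 CPM. DCK was 2.08-fold lower in the second A101D set (log2 fold change -1.06, adjusted p 1.03e-16, limma) and 3.20-fold higher in MeWo than in A101D over all replicates (adjusted p 6.97e-08, limma). Within sets DCK was 2.23-fold higher in MeWo in replicates 1 to 4 and 4.54-fold higher in replicates 5 to 8. It overlaps MOB1B on the same strand, which reached 98.8 CPM, so its count is uncertain. DUT (ENSG00000128951, chromosome 15, 48331011 to 48343373, plus strand), the dUTPase, ran from 53.5 to 57.3 CPM and from 20.1 to 22.2 CPM in the A101D sets, and from 74.9 to 86.5 CPM in MeWo. Its A101D sets differed 2.63-fold (log2 fold change -1.40, adjusted p 2.36e-25, limma), and the lines differed 2.39-fold over all replicates (adjusted p 8.57e-05, limma). The line difference of DUT was 1.48-fold in replicates 1 to 4 and 3.81-fold in replicates 5 to 8. For DCK and DUT the 3 ranges do not overlap. DUT has 8 pseudogenes (summed level up to 1.14 CPM) and an antisense gene of up to 2.60 CPM, whose reads could have been counted with it.

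De novo synthesis genes did not move as a block. CAD (ENSG00000084774, chromosome 2, 27217390 to 27243943, plus strand), the multifunctional enzyme of the opening steps, had 306, 299, 304 and 298 CPM in A101D replicates 1 to 4 and 142, 142, 153 and 153 CPM in replicates 5 to 8. In MeWo it had 194, 195, 193 and 204 CPM and then 198, 179, 193 and 188 CPM. The MeWo libraries lay between the A101D sets and overlapped neither. CAD was 2.05-fold lower in the second A101D set (log2 fold change -1.03, adjusted p 1.22e-26, limma). The line difference therefore changed sign: -0.62 in replicates 1 to 4 (adjusted p 4.91e-20) and 0.36 in replicates 5 to 8 (adjusted p 2.26e-12, limma). Over all replicates it was -0.13 (interval -0.51 to 0.26, adjusted p 0.531, limma), which describes neither set.

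DHODH (ENSG00000102967, chromosome 16, 72008588 to 72027664, plus strand), the mitochondrial dehydrogenase, ran the other way from CAD. It had 17.2 to 18.5 CPM in A101D replicates 1 to 4, 24.5 to 26.0 CPM in replicates 5 to 8, and 22.1 to 26.8 CPM in MeWo. The second A101D set lay within the MeWo range and the first below it. DHODH was 1.41-fold higher in the second A101D set (log2 fold change 0.50, adjusted p 1.39e-10, limma). The MeWo sets differed by 0.12 (adjusted p 0.121, limma), and the set difference was 0.38 lower in MeWo than in A101D (log2 fold change -0.38, adjusted p 4.23e-05, limma). UMPS (ENSG00000114491, chromosome 3, 124730366 to 124749273, plus strand), which completes UMP, ran from 89.3 to 100.4 CPM over all A101D libraries and from 58.2 to 61.2 CPM in MeWo. Its lines were apart and its sets overlapped in A101D. UMPS was 1.57-fold lower in MeWo (log2 fold change -0.65, adjusted p 3.58e-12, limma), and the A101D sets differed by 0.06 (interval -0.01 to 0.13, adjusted p 0.132, limma).

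CTPS1 (ENSG00000171793, chromosome 1, 40979335 to 41012565, plus strand), the CTP synthase, ran from 109 to 116 CPM in A101D replicates 1 to 4 and from 69.9 to 73.4 CPM in replicates 5 to 8. MeWo libraries held 63.1 to 72.4 CPM, a range that overlaps the second A101D set. The A101D sets differed 1.56-fold (log2 fold change -0.65, adjusted p 3.37e-19, limma). Between lines CTPS1 was lower in MeWo by 0.39 over all replicates (log2 fold change -0.39, adjusted p 0.00574, limma), with -0.66 in replicates 1 to 4 and -0.12 in replicates 5 to 8. Its paralogue CTPS2 was lower in A101D replicates 5 to 8, with 34.5 ± 1.66 CPM in the first set and 14.8 ± 0.535 CPM in the second (log2 fold change -1.22, adjusted p 6.23e-23, limma). Per kilobase the ratio of CTPS1 to CTPS2 was 1.56 ± 0.0858 and 2.33 ± 0.0913 in the A101D sets, and 1.59 ± 0.0398 and 1.5 ± 0.0994 in MeWo.

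**Figure D2:**
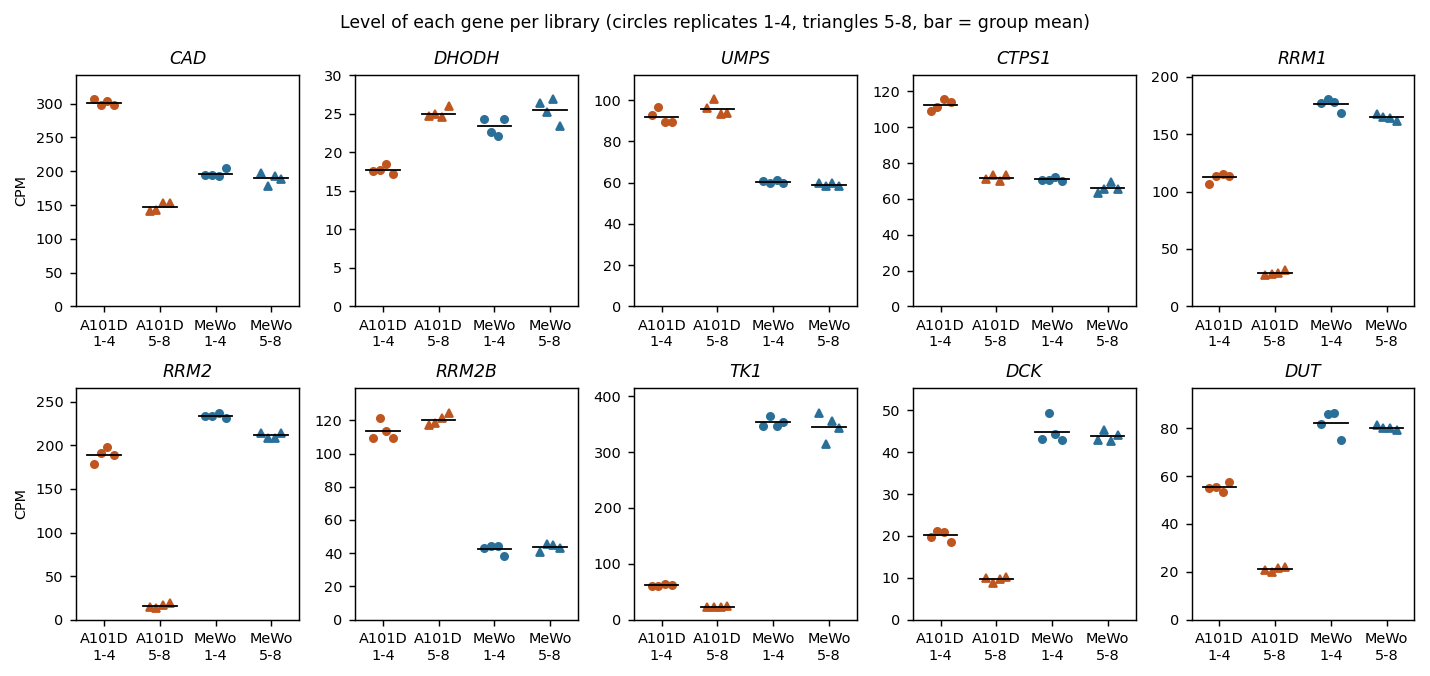
Level in CPM of each of the 10 genes, 1 panel per gene, in A101D and MeWo replicates 1 to 4 (circles) and 5 to 8 (triangles). Each point is a library, the bar is the group mean (n = 4), and every axis starts at 0. RRM2 stands at 13.3 to 18.6 CPM in A101D replicates 5 to 8 and above 178 CPM elsewhere. The lines do not overlap for 7 of the 10 genes, among them RRM2, UMPS and RRM2B.

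Counted together, 7 of the 10 genes were lower in A101D replicates 5 to 8 than in 1 to 4, 2 were higher (DHODH and RRM2B) and UMPS was not called. Their median log2 fold change was -1.05, against 0.01 over all genes. Among all genes 65.6% passed the threshold there, 33.2% higher and 32.4% lower. The sets did not overlap for 8 of the 10 genes and for 59.6% of all genes. In these bulk libraries, fewer cells in S phase and less of a transcript per cell cannot be told apart. Mitochondrial genes took 1.71% to 1.92% of the counts in the first A101D set and 1.93% to 2.33% in the second. Genes with a count numbered 31281 to 33107 and 34020 to 34607. Summed keratinocyte markers (KRT5, KRT14 and KRT1, the last at 0 throughout A101D) were 0.408 to 0.861 and 1.62 to 2.23 CPM. Endothelial markers (PECAM1 and CDH5) were 0.523 to 0.641 and 1.05 to 1.99 CPM, fibroblast markers (COL1A1, COL3A1, PDGFRB and DCN) 8.38 to 10.5 and 7.45 to 8.14 CPM, and immune markers (PTPRC, CD3E and CD68) 0.297 to 0.549 and 0.330 to 0.694 CPM. Most of the fibroblast sum was PDGFRB, which was lower in the second set (log2 fold change -0.44). COL3A1 (3.04) and DCN (2.35) were higher there, with set means of at most 0.372 CPM. COL1A1 (0.32) was not called. The part of these measures in the result was not tested.

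MeWo gave 1 gene lower (RRM2) and 9 not called, with a median of -0.04 against 0.00 over all genes. Among all genes 13.6% passed in MeWo, 6.16% higher and 7.45% lower. The share of calls that were higher was 45.3%, 33.5% with median-of-ratios scaling and 54.8% with upper-quartile scaling, so the direction of the majority depends on the scaling. The sets did not overlap for 4 of the 10 genes (UMPS, CTPS1, RRM1 and RRM2) and for 16.6% of all genes. The set difference itself was tested between lines. It was higher in MeWo for 7 genes, lower for DHODH, and not called for UMPS (adjusted p 0.123) and RRM2B (adjusted p 0.54, limma). Over all genes 49.1% passed that test, 25.9% higher and 23.2% lower.

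Between lines, 5 of the 10 genes were higher in MeWo over all replicates (RRM1, RRM2, TK1, DCK and DUT), 3 lower (UMPS, CTPS1 and RRM2B) and 2 not called (CAD and DHODH). DHODH lay near the threshold (adjusted p 0.0584, limma) and was called without A101D replicate 5, 6, 7 or 8 or without MeWo replicate 2, 3, 4 or 8 (adjusted p 0.0231 to 0.126 over all 16 libraries left out in turn). All genes gave 78.5% called, 37.5% higher and 41.0% lower. The lines did not overlap for 7 of the 10 and for 55.2% of all genes. In replicates 1 to 4 all 10 were called, 6 higher and 4 lower, where 79.4% of all genes were called (37.1% higher, 42.3% lower). In replicates 5 to 8, 6 were higher, 3 lower, and DHODH was not called (0.02, interval -0.08 to 0.12, adjusted p 0.704, limma). All genes then gave 84.2% called, 40.3% higher and 43.9% lower. With most genes called, the counts alone say little about these 10, and the sizes differ more. RRM2 was 1.24-fold higher in MeWo in replicates 1 to 4 and 13.6-fold higher in replicates 5 to 8, and RRM1 was 1.57-fold and 5.65-fold higher. The line comparisons share their A101D libraries with the comparison of the A101D sets, and their MeWo libraries with that of the MeWo sets.

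**Figure D3:**
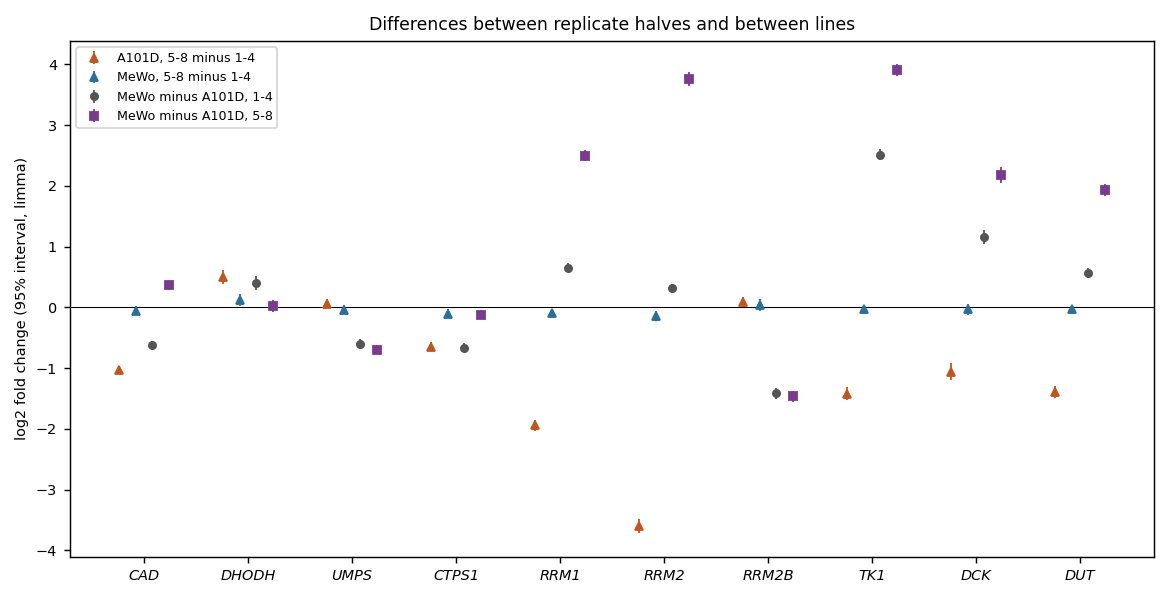
Log2 fold change (vertical axis) with its 95% interval from limma for each of the 10 genes, for the sets within A101D and MeWo (triangles) and for MeWo minus A101D in replicates 1 to 4 (circles) and 5 to 8 (squares). The set differences of MeWo stay between -0.15 and 0.12, whereas those of A101D reach -3.60 for RRM2.

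The order of the levels per kilobase differed between groups. Within a group the order also depends on the joined exon length, which ran from 1861 bases for TK1 to 11517 for CTPS1. In A101D replicates 1 to 4, CAD (35.8 ± 0.513 CPM per kilobase) and RRM2 (35.6 ± 1.52) led and overlapped, and TK1 (33.2 ± 1.04) overlapped RRM2. DHODH was lowest at 2.56 ± 0.0786. In A101D replicates 5 to 8, RRM2B led at 21.7 ± 0.606, followed by CAD at 17.5 ± 0.722. RRM2 (2.95 ± 0.461) and DCK (3.0 ± 0.212) were lowest and overlapped. In MeWo, TK1 led at 188 ± 9.21 CPM per kilobase (n = 8), far above RRM2 (41.9 ± 2.34) and RRM1 (40.8 ± 1.74), which overlapped. DHODH was lowest there at 3.53 ± 0.245, below CTPS1 at 5.94 ± 0.279. UMPS (7.88 ± 0.143) and RRM2B (7.77 ± 0.404) overlapped in MeWo.

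Among the other genes of the pathway, 34 of 39 were tested. In A101D replicates 5 to 8 against 1 to 4, 11 were higher and 17 lower, with a median of -0.13. Over all genes 33.2% were higher and 32.4% lower in that comparison, so the part called higher was close to that of all genes. The same shares stand beside the smaller lists that follow. Of the pyrimidine synthesis genes, TYMS (thymidylate synthase; log2 fold change -0.93) was lower with CTPS2, and DCTD (dCMP deaminase; 0.14) was higher. TYMS had 18.9 ± 0.756 and 9.92 ± 0.583 CPM in the A101D sets. TYMS overlaps other genes, so its count is uncertain. Of 13 nucleoside and nucleotide kinases, 10 were lower and 2 higher (TK2 and NME6). DTYMK, the thymidylate kinase, was lowest at -1.14, from 79.7 ± 1.91 to 36.1 ± 0.963 CPM. DGUOK, the mitochondrial deoxyguanosine kinase, was lower by less (-0.34). Of 11 tested breakdown genes, 5 were higher and 2 lower, with SAMHD1, the dNTP hydrolase, at -0.16 and the mitochondrial nucleotidase NT5M at -1.25. DCTPP1, the dCTP pyrophosphatase, was not called (-0.02, adjusted p 0.745, limma). Of 6 tested carriers, 3 were higher and 2 lower. The nucleoside carrier SLC28A3 differed most, at 1.07 ± 0.144 and 3.62 ± 0.213 CPM (1.76).

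The same list in MeWo gave 3 higher and 2 lower between sets, with 29 not called and a median of -0.01. Among all genes 6.16% were higher and 7.45% lower between these sets. NME3 (0.38), NT5C (0.26) and TYMP (0.21) were higher, and UCK2 (-0.17) and DCTPP1 (-0.16) lower. MeWo against A101D over all replicates gave 17 higher, 7 lower and 10 not called, with a median of 0.27 against -0.04 over all genes. All genes gave 37.5% higher and 41.0% lower there. NT5C (1.83), TYMS (1.31) and UCKL1 (1.04) were among the largest log2 fold changes. SLC28A3 (-4.39), DPYS (-2.72), NT5E (-1.45) and DCTD (-0.87) had the smallest. SLC28A3 in MeWo had 0.0896 ± 0.0424 CPM (n = 8), so its fold change rests on few counts.

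S-phase genes and their regulators were lower in the second A101D set, as were 7 of the 10 genes. All 15 tested S-phase and proliferation markers (MCM2 to MCM7, PCNA, CCNE1, CCNE2, CCNA2, CDK1, TOP2A, CDC6, CDT1 and MKI67) were lower in A101D replicates 5 to 8, with a median of -2.03. Their summed level was 1702 to 1774 CPM in the first set and 440.9 to 466 CPM in the second. Among all genes 32.4% were lower between the A101D sets. In MeWo 11 of the 15 markers were lower between sets, with a median of -0.17, while MKI67, CDK1, TOP2A and CCNA2 were not called. There 7.45% of all genes were lower. All 12 E2F, RB and MYC genes were lower in the second A101D set, with a median of -0.84. E2F1, an activator of S-phase genes, had 85.2 ± 3.82 and 16.4 ± 0.307 CPM (log2 fold change -2.38), and MYC had 30.5 ± 2.05 and 15.7 ± 0.641 CPM (-0.96). Between the MeWo sets 5 of these 12 genes were lower and 7 not called, with a median of -0.12. Of all genes 7.45% were lower between those sets. In MeWo, E2F1 was 71.2 ± 2.65 and 65.1 ± 2.68 CPM. MYC was higher in MeWo than in A101D by 3.02 on the log2 scale (adjusted p 6.73e-12, limma). E2F1 was not called between lines over all replicates (0.88, adjusted p 0.0505, limma), a value that describes neither set. In replicates 1 to 4 E2F1 was lower in MeWo (-0.26, adjusted p 1.83e-07, limma). In replicates 5 to 8 it was higher there, with 65.1 ± 2.68 CPM against 16.4 ± 0.307 CPM in A101D.

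Genes that p53 is known to induce were compared because RRM2B is one. All 12 listed p53 targets were lower in MeWo than in A101D over all replicates, with a median of -1.66, and RRM2B was -1.44. Over all genes 41.0% were lower in MeWo. CDKN1A, the inhibitor of cyclin-dependent kinases, had 382 ± 4.12 and 690 ± 21.1 CPM in the A101D sets and 16.5 ± 1.75 CPM in MeWo (n = 8). Between the A101D sets, 10 of the 12 were higher and 2 lower (DDB2 and SESN1), with a median of 0.44. CDKN1A was 0.85 higher on that scale, against 0.09 for RRM2B. Among all genes 33.2% were higher and 32.4% lower between the A101D sets. The lists in these comparisons were chosen with results of these data known and are given as counts only.

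**Figure D4:**
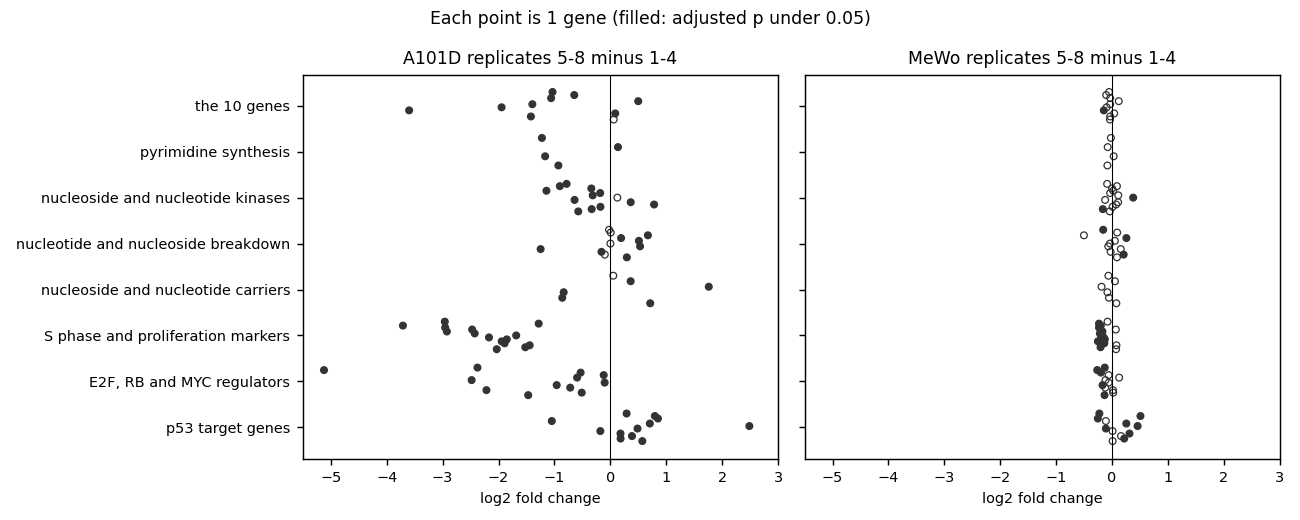
Log2 fold change (horizontal axis) of replicates 5 to 8 against 1 to 4 in A101D (left) and MeWo (right), with 1 point per gene and 1 row per gene list. Filled points passed the adjusted p threshold of 0.05. The 15 S-phase markers lie between -3.71 and -1.28 in A101D and between -0.25 and 0.08 in MeWo.

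Genes whose log2 CPM over the 16 libraries was most like that of a given gene were found by Pearson correlation, as a description, because the libraries form separate clusters. SPC25, CLSPN and CDC6 were most like RRM2 (r of 0.999, 0.999 and 0.998). CLSPN had 75.9 CPM in the first A101D set, 8.53 in the second and 92.1 in MeWo, on average. ITPRID2, PRRX1 and YAE1 were most like RRM2B (r of 0.998 each). FAM20C, PNPLA3 and CHEK2 were most like CAD (r of 0.994, 0.991 and 0.990), and CHEK2 averaged 31.7, 10.4 and 15.8 CPM in the same order of groups.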

How the data were processed

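The authors deposited 1 table per line in which each cell joins an Ensembl identifier and a whole-number count of reads over the exons of a gene, and both parts were separated. In the record of units these columns are therefore other than plain counts, as deposited. The submitters' processing notes name Trimmomatic 0.39-1, STAR 2.7.1a, featureCounts 2.0.0 and GRCh38. No strand setting or annotation release is stated there or in the labels, so reads of overlapping or antisense genes cannot be assigned surely. Symbols were found for 60357 of 60676 identifiers. Coordinates and exon lengths are from GENCODE 29, where the length covers all annotated exons of a gene, each base counted once.

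Genes with 0.298 CPM (10 counts at the median depth) in 4 or more libraries, and a total of 15 counts, were tested, 21569 genes. Library sizes were scaled by trimmed mean of M-values factors (trims of 30% and 5%). Limma 3.58.1 in R 4.3.3 was used with voom weights and robust empirical Bayes, Benjamini-Hochberg adjustment and a threshold of 0.05. One model held the line, another 4 means of line and set, over all 16 libraries. A quasi-likelihood count test was to be used if the columns passed as counts in the check of units, which they did not. The step was tested on simulated data, with the same spread between libraries set for every gene. Between lines it recovered 69% of 1.5-fold and 100% of 3-fold changes, with 6 false calls among 21569 genes. Between the A101D sets it recovered 38% and 97%, with 4 false calls. The spread set there was larger than that of the 10 genes within most groups of 4 libraries. The recovered shares therefore hold for the simulated spread and do not give the power for these genes.

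Named are the 10 genes, genes fixed by name, the 4 largest and 4 smallest changes of the pathway list between lines, the 4 largest absolute changes between sets, and the 3 genes most like RRM2, RRM2B and CAD. One gene that this rule names is not reported here. Other genes named beside small counts were named after their values were seen. Members and lists were chosen with earlier results of these data known. The results were recomputed with upper-quartile or median-of-ratios factors, no filter, a filter at 1 CPM, limma-trend, a threshold of 0.01, the replicate number as a block, and leaving out each library. No pair of libraries agreed within sampling noise (lowest chi-square per gene 2.43 in A101D and 1.92 in MeWo).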

Additional observations from a re-analysis of the deposited data

Results flagged for a closer look

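The set difference (replicates 5 to 8 minus 1 to 4) differed between the lines for 8 of the 10 genes by an interaction term in limma. As the log2 value in MeWo minus that in A101D it was 3.45 for RRM2, 1.85 for RRM1, 1.39 for TK1, 1.36 for DUT, 1.03 for DCK, 0.98 for CAD, 0.54 for CTPS1 and -0.38 for DHODH. All 8 had adjusted p of 4.23e-05 or lower, against 49.1% of all genes called.

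Single libraries far from the others of their group were looked for in 60 groups of libraries, and 2 were found. A rate of 1 in 20 groups would give 3. That number is only rough, because the groups of 8 libraries contain the groups of 4. CAD in MeWo replicate 4 stood at 204 CPM, against 193 to 195 CPM in replicates 1 to 3. DCK in MeWo replicate 2 stood at 49.5 CPM, where the remaining MeWo libraries ran from 42.8 to 45.3 CPM, and that library also held the most genes with a count in MeWo (34471).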

How the results depend on the processing

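Comparisons of the sets have 4 libraries a side, and no label ties a set to a medium. Counts of the 10 genes called kept within 1.5 times in the 3 line comparisons under every alternative run. In the A101D sets the 2 genes higher became 1 without a low-count filter, with limma-trend and at a threshold of 0.01, and 1 to 3 when single libraries were left out. In the MeWo sets the 1 gene lower became 3 with median-of-ratios factors, 2 without a filter, 2 with a filter at 1 CPM and 0 with limma-trend, and 1 to 3 when single libraries were left out. Of the other pathway genes, 2 were lower in the MeWo sets and 1 without a filter. For the difference between set differences the 1 gene lower became 2 with median-of-ratios or upper-quartile factors, and 1 to 2 when single libraries were left out. The cause was not tested.

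Near 0, signs turned. DHODH in MeWo minus A101D, replicates 5 to 8 (0.02), was -0.0030 with median-of-ratios factors, -0.0183 with upper-quartile factors, and -0.0057 to 0.0786 without single libraries (below 0 without A101D replicate 5 or 7). Between the MeWo sets RRM2B was -0.0327 without MeWo replicate 4 and DCK 0.0070 without MeWo replicate 2, in ranges over libraries left out of -0.0327 to 0.0654 and -0.0794 to 0.0070.

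Calls of single genes also moved with 1 library. RRM2B lost its call between the A101D sets without A101D replicate 1, 3, 4, 7 or 8 or MeWo replicate 3, 7 or 8 (adjusted p 0.00741 to 0.171 over libraries left out, limma). UMPS gained one there without A101D replicate 2 or 8 and under processing alternatives that included upper-quartile factors (0.14). In the difference of set differences UMPS gained one without A101D replicate 2 or 8 or MeWo replicate 4. CTPS1 and RRM1 were called lower between the MeWo sets with median-of-ratios factors (-0.13 and -0.12) and without A101D replicate 3 or 8 or MeWo replicate 4. CTPS1 was also called without A101D replicate 2 or MeWo replicate 7, and RRM1 without A101D replicate 1 or 5. DHODH was called between lines over all replicates without A101D replicate 5, 6, 7 or 8 or MeWo replicate 2, 3, 4 or 8, and with a filter at 1 CPM.

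The replicate numbers are shared between lines, but same-numbered libraries deviated from their line means with correlations of 0.0306 to 0.144, over 0.1 for 5 of 8 pairs. Deviations from the means of line and set gave -0.0252 to 0.078, over 0.1 for 0 of 8 pairs, and by that measure 3 of 8 correlated best with their own number, so the numbers were not taken as pairs. With the replicate number as a block, DHODH passed between lines (0.20, adjusted p 0.0342, limma), and no other call of the 10 genes changed in the line comparisons or in the difference between set differences, the contrasts that this fit allows.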

Other observations

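Genes whose products control the protein level of RRM2 and TK1 were listed as well. CCNF, the cyclin that marks RRM2 for destruction, was lower in A101D replicates 5 to 8 than in 1 to 4 (log2 fold change -1.74, adjusted p 2.32e-29, limma). CDC20, an activator of the anaphase-promoting complex, was lower too (-1.79), as was its subunit CDC27 (-0.34). FZR1, the other activator of that complex, was not called (-0.06, adjusted p 0.254, limma). Among all genes 32.4% were lower between the A101D sets. Between the MeWo sets only FZR1 was called (0.13, adjusted p 0.0388, limma). Of all genes 13.6% were called between the MeWo sets, 6.16% higher and 7.45% lower. All 4 were higher in MeWo than in A101D over all replicates, from 0.43 for FZR1 to 1.33 for CDC20. Over all genes 37.5% were higher there. The protein was not measured.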
